A study of Homo sapiens with 12 samples.

Results

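Polyamine metabolism was followed through 9 genes, SAT1, ODC1, AMD1, SRM, SMS, SMOX, OAZ1, OAZ2 and AZIN1, out of 57820 gene IDs in the deposited count files. They were found by pairing each Ensembl ID with its symbol, and all 9 passed the filter on low counts. The deposited splicing files held 56 events of these genes among 56092, of which 47 had enough reads to be tested. The cells were AsPC-1, a cell line established from pancreatic cancer, in 4 groups of 3 replicates labelled A, B and C. Normoxia siControl cells received a scrambled siRNA and stayed at 21% O2, and hypoxia siControl cells received the same siRNA and spent 24 h at 1% O2. Normoxia siARNT and hypoxia siARNT cells received an siRNA against ARNT and were kept at the same oxygen levels. Every group, controls included, had been transfected with a lipid reagent, its wells were divided on the following day, and RNA was taken 48 h after transfection. ARNT is the partner that the oxygen-regulated HIF alpha subunits need to bind DNA, and the study asked which transcripts and isoforms depend on it. The labels do not say whether A, B and C are independent experiments, so p-values measure the spread between these wells. In such bulk RNA, fewer cells of a kind and less RNA per cell cannot be told apart. SAT1 was selected on measured values: it was chosen by the shift of its splice site use with siARNT. All values of SAT1 under siARNT are therefore given as a description, with no test, and SAT1 is left out of counts of members in those comparisons.

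Polyamines are small, positively charged molecules that bind RNA and are needed for growth. Ornithine decarboxylase (ODC1) makes putrescine, and the synthases SRM and SMS add aminopropyl groups, supplied through AMD1, to give spermidine and then spermine. SAT1 acetylates spermidine and spermine for export or oxidation, and SMOX oxidises spermine directly. Antizymes (OAZ1, OAZ2) bind ODC1 and send it to the proteasome, and the antizyme inhibitor AZIN1 frees it. SAT1 is also known for a cassette exon that carries an early stop codon and leads the transcript to nonsense-mediated decay, and polyamines are known to favour its skipping.

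The SAT1 splice sites are shown first because the splicing shift for which SAT1 was chosen lies between them. The cassette exon of 110 bases sits between the third exon (84 bases, coding) and the fourth exon (102 bases, coding) on chromosome X, plus strand. In the event files it lies at X:23802411-23802520. Those files name no build, and none of the 20 SAT1 exons in them lay at a GENCODE 29 position. Shifted by 18117 bases, 7 of the 20 matched GENCODE 29 exons of SAT1 in GRCh38, the cassette exon among them (chrX:23784294-23784403, exon of the non-coding transcript SAT1-209). The sequences below were read from GENCODE 29 transcripts, 5′ to 3′. Capitals mark the intron bases that border each exon and, in the second line, also the stop codon.
Donor of the third exon, chrX:23783875-23783895: ctccggaagGTaacccctcgc
Cassette exon acceptor and stop, chrX:23784283-23784312: ccaatcttcAGgttacagtctcTAGcttcg
Cassette exon donor, chrX:23784395-23784411: ataaatgagGTaaggtc
Acceptor of the fourth exon, chrX:23785308-23785336: atgtgatgctcttattacAGgacacagca
When the reading frame of the coding transcript SAT1-204 was carried into the cassette exon, codon 72 was the stop TAG, which begins at base 12 of the exon. When the exon was skipped, the frame ran on to a TGA at codon 172. The cassette exon's length is not a multiple of the codon length, whereas those of its neighbours are.

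With siARNT, the SAT1 junction that skips the cassette exon carried more than double the reads in the mean of each oxygen level, while the groups overlapped for both junctions of the cassette exon. Reads joining the third exon to the fourth, in counts-per-million (CPM) after TMM scaling for library composition, were 2.28, 2.25 and 2.39 in normoxia siControl A, B and C. In normoxia siARNT they were 5.92, 4.75 and 4.59. In hypoxia siControl they were 1.93, 2.04 and 1.72, and in hypoxia siARNT 3.87, 4.10 and 4.04. Every siARNT library lay above every siControl library at both oxygen levels, a ratio of means of 2.20 in normoxia and 2.11 in hypoxia. With hypoxia the mean was lower, at ratios of 0.821 in siControl and 0.787 in siARNT, also without overlap.

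Reads joining the cassette exon to the fourth exon were 3.12, 2.91 and 3.06 CPM in normoxia siControl and 3.23, 3.05 and 2.84 in normoxia siARNT. In hypoxia they were 2.23, 2.21 and 2.43 in siControl and 2.15, 2.25 and 1.80 in siARNT. The groups overlapped at both oxygen levels, with ratios of means of 1.00 and 0.903. With hypoxia the ratios were 0.756 in siControl and 0.680 in siARNT, without overlap. The junction into the cassette exon was seen less often, at 1.00 ± 0.182 CPM in normoxia siControl and 0.986 ± 0.105 in normoxia siARNT (SD, n = 3), and was 0.775 ± 0.127 and 0.667 ± 0.192 in hypoxia. Upstream of this choice, the junction from the second to the third exon was 3.75 ± 0.158 CPM in normoxia siControl and 5.32 ± 0.105 in normoxia siARNT, a ratio of 1.42. In hypoxia it was 3.44 ± 0.181 and 4.84 ± 0.303, a ratio of 1.40, without overlap at either oxygen level. The junction that omits the third exon as well was rare, with at most 13 reads in a library.

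**Figure D1:**
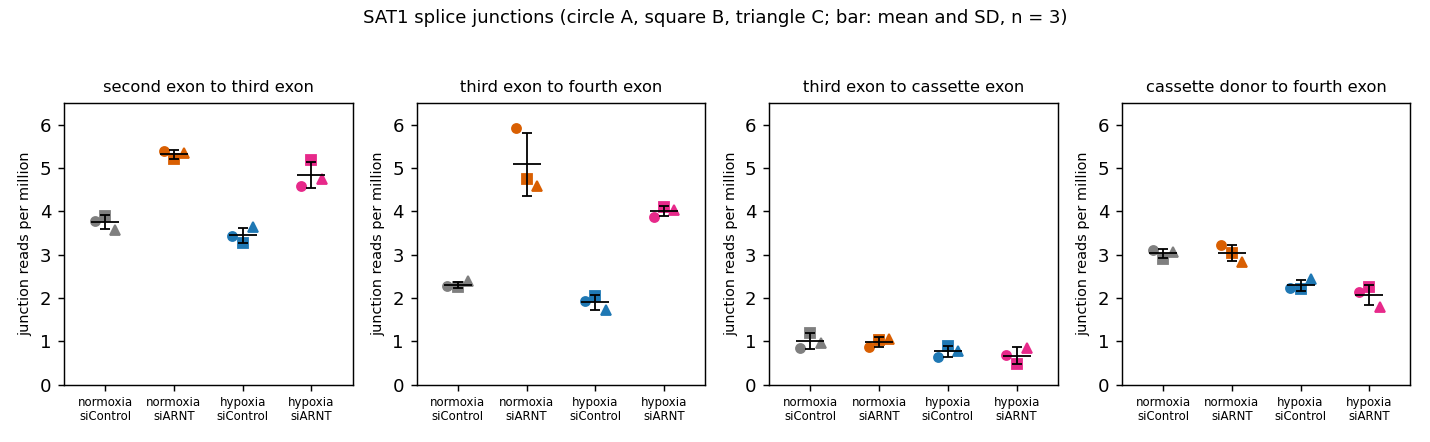
Junction reads in CPM over 4 SAT1 junctions (vertical axes) in the 4 groups (horizontal axes), one marker per library, with the mean and SD over 3 libraries. Of the 4, the junctions from the second to the third exon and from the third to the fourth separate siARNT from siControl, and the latter has a ratio of means of 2.20 in normoxia.

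As a share, the percent spliced in (PSI) of the cassette exon was 46.5, 47.7 and 45.7% in normoxia siControl and 25.7, 30 and 29.8% in normoxia siARNT. It was 42.7, 43.3 and 48.2% in hypoxia siControl and 26.8, 24.9 and 24.7% in hypoxia siARNT. The difference of means with siARNT was -18.1 points in normoxia and -19.3 in hypoxia, and the groups did not overlap. The same choice read as alternative 5′ splice sites of the fourth exon's partner gave the third exon's donor 43.3 ± 0.85% of reads in normoxia siControl and 62.4 ± 2.00% in normoxia siARNT, with 45.3 ± 3.39% and 66.0 ± 2.75% in hypoxia (SD, n = 3). These events count the same junctions and are not independent. The cassette exon's donor was read 2.11 to 4.80 times as often as its acceptor in every library. PSI averages both junctions, so it lies above the share given by the acceptor alone. Of the third exon's reads, 30.2% went to the cassette exon in normoxia siControl and 16.5% in normoxia siARNT. In hypoxia these were 28.9% (siControl) and 14.2% (siARNT).

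Read as alternative 3′ splice sites, the third exon's reads went to the fourth exon rather than the cassette exon in 69.8% of cases in normoxia siControl and 83.5% in normoxia siARNT. In hypoxia the values were 71.1% (siControl) and 85.8% (siARNT). Coverage of the retained introns, as a share of coverage plus junction reads, moved in different directions. For the whole interval between the third and the fourth exons its means were 50.6% (siControl) and 36.3% (siARNT) in normoxia and 56.6% and 42.2% in hypoxia, and this interval holds the cassette exon. The junction counted in that share joins the third exon to the fourth, and its reads were higher with siARNT. A lower share is therefore not by itself lower coverage. For the intron upstream of the cassette exon the means in the same order were 67.1, 72.4, 73.3 and 79.9%, and for the intron downstream of it 43.1, 47.9, 51.9 and 58.5%. A retained interval from within the second exon to a site inside the cassette exon held 89.6 to 92.0% in all groups. That interval holds the whole coding exon that precedes the cassette exon, and parts of the exons at its ends. Its share therefore includes exon coverage and is not by itself a measure of intron retention.

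Hypoxia left SAT1 splicing uncalled. Splicing events were tested with edgeR's quasi-likelihood test on inclusion and exclusion reads and Benjamini-Hochberg adjustment over 48220 events, at an adjusted p under 0.05. For intron retention, the rounded mean coverage of the intron was entered in place of inclusion reads. None of the 16 tested SAT1 events was called with hypoxia in siControl or in siARNT. The smallest adjusted p of any member event was 0.433 and 0.450, both for retention downstream of the SAT1 cassette exon, whose groups did not overlap in either comparison. Across the 47 tested member events, 0 were called with hypoxia in siControl (1 at an unadjusted p under 0.05) and 0 in siARNT (6 unadjusted), and limma on the log odds also called 0 in each. Of all events, 0.0456% were called with hypoxia in siControl and 0% in siARNT.

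**Figure D2:**
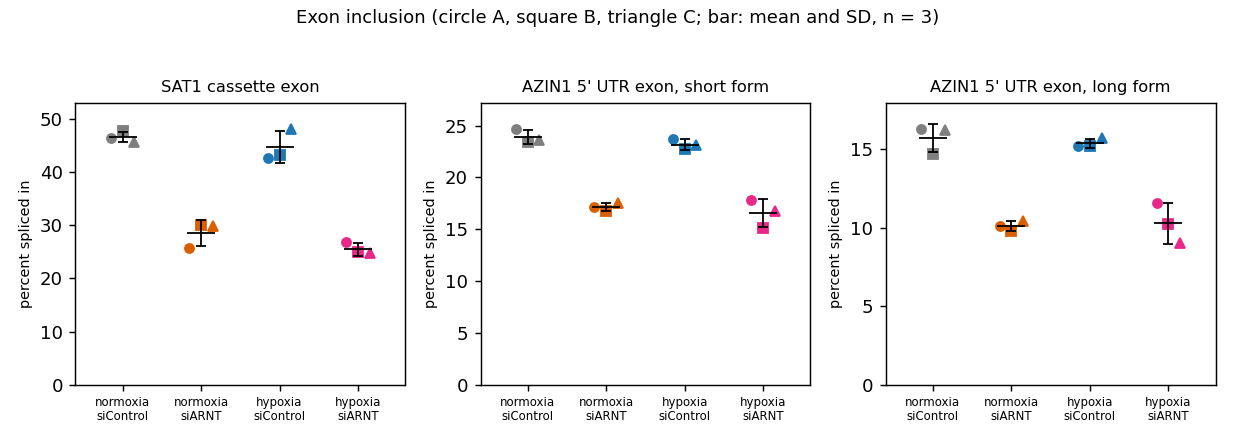
Percent spliced in (vertical axes) of the SAT1 cassette exon and of 2 forms of an AZIN1 exon in the 4 groups, one marker per library, with the mean and SD over 3 libraries. In each plot the siARNT libraries lie below the siControl libraries at both oxygen levels.

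The total SAT1 transcript (ENSG00000130066.12) was also higher with siARNT. It stood at 66.9, 67.8 and 72.4 CPM in normoxia siControl and at 92.5, 82.8 and 89.9 in normoxia siARNT. In hypoxia it was 64.1, 56.8 and 67.4 in siControl and 87.4, 85.4 and 75.9 in siARNT. The groups did not overlap, and the fitted log2 fold change was 0.36 in normoxia and 0.40 in hypoxia, or 0.55 and 0.41 with a correction for GC content. With hypoxia SAT1 had a log2 fold change of -0.14 in siControl (SE 0.0788, edgeR adjusted p 0.238), and in siARNT it was -0.09 (SE 0.0786, p 0.529 after adjustment), and the groups overlapped in both. With that correction the hypoxia value in siARNT was -0.20 (adjusted p 0.0150). Of 9855 other genes at 5 CPM or more, SDCCAG8, ZC3HAV1, the antisense RNA THAP9-AS1, TNIK and DCAF1 had the most similar profile over the 12 libraries. Their root mean square difference from SAT1 in centred log2 CPM was 0.0505, 0.0578, 0.0618, 0.0618 and 0.0643.

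**Figure D3:**
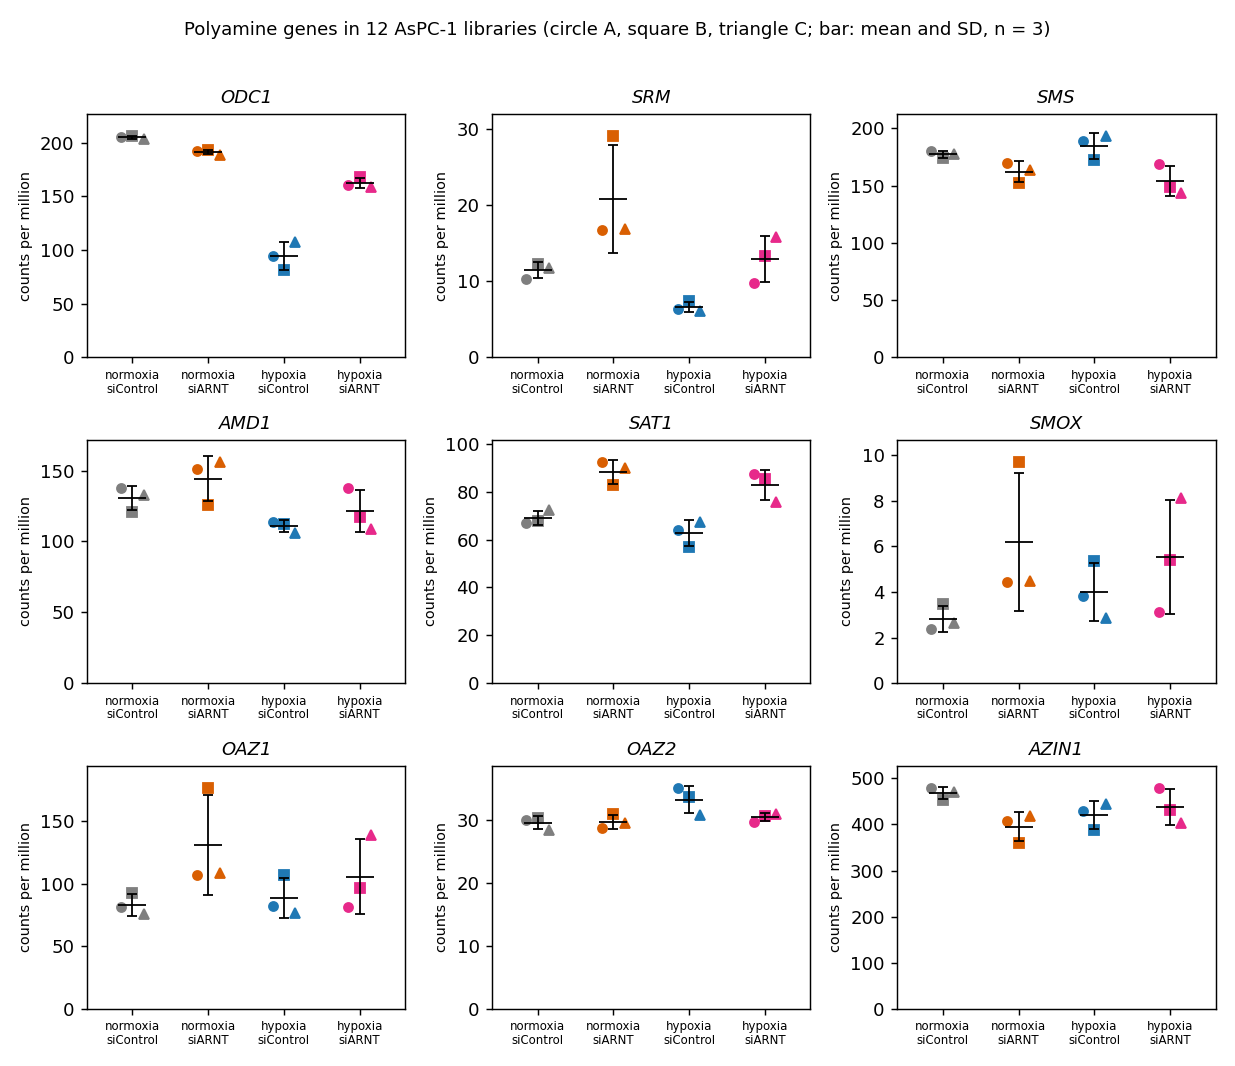
CPM (vertical axes, each from 0) of the 9 genes in the 4 groups, one marker per library, with the mean and SD over 3 libraries. ODC1 stands at 81.5 to 108 in hypoxia siControl and above 150 in the other groups, whereas OAZ2 stays between 28.4 and 35.2 throughout.

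ODC1 (ENSG00000115758.8), the first enzyme of the pathway, fell with hypoxia in siControl cells and was higher in hypoxia siARNT than in hypoxia siControl. It stood at 205, 206 and 204 CPM in normoxia siControl and at 94.5, 81.5 and 108 in hypoxia siControl. With siARNT it stood at 192, 193 and 189 in normoxia and at 161, 168 and 159 in hypoxia. The groups overlapped in none of the 4 comparisons. By edgeR's quasi-likelihood test with Benjamini-Hochberg adjustment over 16999 genes, hypoxia changed ODC1 by -1.12 on the log2 scale in siControl (SE 0.0815, adjusted p 3.80e-06). In siARNT the value was -0.23 (SE 0.0805, adjusted p 0.123). The difference between both, the interaction, was 0.88 (SE 0.114, adjusted p 0.00133). In hypoxia, siARNT raised ODC1 by 0.78 (SE 0.0812, adjusted p 2.61e-05), and in normoxia the difference was -0.10 (SE 0.0803, adjusted p 0.382). The hypoxia fall in siControl, the interaction and the rise with siARNT in hypoxia were called under every alternative run. With GC correction the hypoxia value in siARNT was also called (-0.24, adjusted p 0.0196).

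SRM (ENSG00000116649.5), spermidine synthase, fell with hypoxia in siControl and was higher with siARNT at both oxygen levels. It stood at 10.3, 12.3 and 11.7 CPM in normoxia siControl and 6.38, 7.35 and 6.12 in hypoxia siControl. In normoxia siARNT it stood at 16.7, 29 and 16.8, and in hypoxia siARNT at 9.75, 13.3 and 15.8. The groups overlapped in none of the 4 comparisons, though library B of normoxia siARNT stood far above A and C. For hypoxia the log2 fold change was -0.79 in siControl (SE 0.225, adjusted p 0.0233). In siARNT it was -0.69 (SE 0.220, adjusted p 0.103), which DESeq2 called, and without library B of normoxia siARNT it was -0.37 (adjusted p 0.233). For siARNT it was 0.86 in normoxia, with an SE of 0.220 and an adjusted p of 0.0198, and 0.97 in hypoxia, with an SE of 0.225 and an adjusted p of 0.00733, and the interaction was 0.10 (adjusted p 0.870).

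SRM is a GC-rich transcript (63.7% GC), as are SMOX (61.0%) and OAZ1 (61.2%), and these 3 genes were highest in library B of normoxia siARNT. That library also had the steepest rise of counts with GC content, 0.424 log2 units per 10 points of GC, and library C of hypoxia siARNT followed at 0.238. The other libraries ran from -0.205 to 0.120. With each library's GC trend removed, SRM's change with siARNT in normoxia was 0.26 (adjusted p 0.0208), and without that library it was 0.54 (adjusted p 0.0435). The hypoxia value in siControl became -1.02, that in siARNT -0.44 (adjusted p 0.00153) and the interaction 0.58 (adjusted p 0.00325). SRM's hypoxia fall in siControl lost its call without normoxia siControl B or C or without hypoxia siControl A or C (adjusted p 0.0678 to 0.0733). Its rise with siARNT in normoxia lost it without normoxia siControl A or C (adjusted p 0.0868 and 0.0664).

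SMS (ENSG00000102172.11), spermine synthase, passed the test in 1 comparison. It stood at 180, 174 and 178 CPM in normoxia siControl and 170, 152 and 164 in normoxia siARNT. In hypoxia the values were 189, 172 and 193 (siControl) and 169, 149 and 144 (siARNT). In hypoxia the siARNT libraries all lay below the siControl libraries, with a log2 fold change of -0.26 (SE 0.0722, adjusted p 0.0179), and this was its only call. That call was lost without hypoxia siControl A or C or without hypoxia siARNT B or C (adjusted p 0.0628 to 0.0754). With GC correction SMS was also called with hypoxia, at 0.12 in siControl and -0.15 in siARNT, and in the interaction at -0.27 (adjusted p 0.00414).

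AMD1 (ENSG00000123505.10), which makes the aminopropyl donor, was called in no comparison by edgeR as fitted on all 12 libraries. It stood at 138, 121 and 133 CPM in normoxia siControl and 151, 126 and 156 in normoxia siARNT. In hypoxia the values were 114, 112 and 106 (siControl) and 138, 117 and 109 (siARNT). With hypoxia the values were -0.24 (adjusted p 0.106) and -0.25 (adjusted p 0.181), and the groups separated in siControl only, where a fit of only those 6 samples called it (adjusted p 0.0112). AMD1 is AT-rich (37.7% GC), and with GC correction it was called in 4 comparisons, at -0.17 and -0.32 with hypoxia in siControl and siARNT and at 0.34 and 0.19 with siARNT in normoxia and hypoxia.

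SMOX (ENSG00000088826.13), spermine oxidase, was the least abundant member, and its libraries varied most. It stood at 2.39, 3.46 and 2.62 CPM in normoxia siControl and 4.43, 9.71 and 4.49 in normoxia siARNT. In hypoxia the values were 3.82, 5.35 and 2.85 (siControl) and 3.12, 5.39 and 8.13 (siARNT). The siARNT difference in normoxia was 1.14 (SE 0.392, adjusted p 0.0598) without overlap, and 0.67 with GC correction (adjusted p 0.0285). DESeq2 also called it, whereas without library B of normoxia siARNT it was 0.66 (adjusted p 0.220). The other comparisons of SMOX overlapped.

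Neither antizyme was called by edgeR as fitted on all 12 libraries, though other settings called both. OAZ1 (ENSG00000104904.8) stood at 81.1, 93.0 and 75.9 CPM in normoxia siControl and 107, 177 and 109 in normoxia siARNT, a log2 fold change of 0.65 (SE 0.229, adjusted p 0.0639) that was 0.19 with GC correction (adjusted p 0.0190). DESeq2 called it (adjusted p 0.0158), and without library B of normoxia siARNT it was 0.37 (adjusted p 0.230). In hypoxia it stood at 82.5, 107 and 76.2 in siControl and 81.3, 96.8 and 139 in siARNT, and these groups overlapped, at 0.26 without and 0.17 with GC correction (adjusted p 0.442 and 0.0303). OAZ2 (ENSG00000180304.10) kept to 28.4 to 35.2 CPM in all 12 libraries, and its largest value, 0.17 with hypoxia in siControl, had an adjusted p of 0.0800 (0.0351 with GC correction, at 0.22). AZIN1 (ENSG00000155096.9), the antizyme inhibitor, stood at 479, 453 and 471 CPM in normoxia siControl and 408, 359 and 418 in normoxia siARNT, a value of -0.24 (SE 0.0811, adjusted p 0.0538) that was -0.04 with GC correction (adjusted p 0.445) and was called under total count scaling. In hypoxia it stood at 430, 387 and 444 in siControl and 480, 431 and 404 in siARNT, which overlapped.

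**Figure D4:**
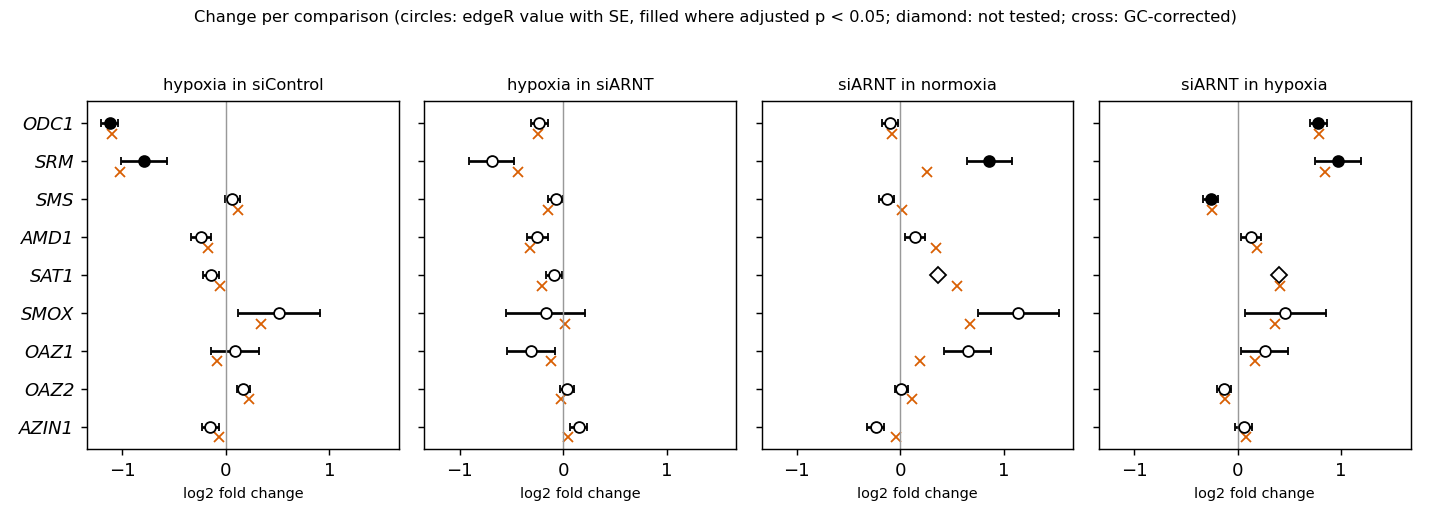
Log2 fold change (horizontal axes) of the 9 genes in 4 comparisons, as circles with the standard error, filled where the adjusted p was under 0.05, with diamonds for values not tested and crosses for GC-corrected values. ODC1 is near -1.12 with hypoxia in siControl under both, and SRM with siARNT in normoxia moves from 0.86 to 0.26.

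Counted over the members, 2 of 9 were called with hypoxia in siControl, both falls (25.3% of 16999 genes were called). None of the 9 was called in siARNT (4.09% of all genes), with 3 at an unadjusted p under 0.05 and 1 called by DESeq2. With siARNT, 1 of 8 was called in normoxia (20.2% of all genes) and 3 of 8 in hypoxia (29.1%), and the interaction called 1 of 8 (4.69%). By direction, rises were 9.42% of all genes and falls 10.8% with siARNT in normoxia, 14.4% and 14.7% in hypoxia, 2.49% and 2.19% in the interaction, and 2.21% and 1.89% with hypoxia in siARNT. Read against these shares, no count of members rests on more than 3 genes, and nothing is drawn from them for the set. The comparisons share groups, so their calls are not independent. Per kilobase of exon, the order of levels in normoxia siControl was SMS (82.1 CPM per kb), AZIN1 (72.8), ODC1 (69.1), SAT1 (27.6), OAZ1 (24.3), AMD1 (18.6), SRM (6.03), OAZ2 (3.86) and SMOX (0.958). Only SAT1 and OAZ1 overlapped among neighbours in that order. Length was the union of all GENCODE 29 exons of a gene, so the order also depends on the annotation. In hypoxia siControl ODC1 was at 31.9 ± 4.39 and SAT1 at 25.1 ± 2.17 CPM per kb (SD, n = 3).

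AZIN1 was the only member with a called event, SAT1 under siARNT not being tested. Its exon of 146 bases at 8:103862227-103862372 in the event files, minus strand, is skipped when the flanking exons are joined directly. By exon length and a constant shift it matches an exon of 2 GENCODE 29 transcripts (GRCh38, 8:102849999-102850144) that lies in the untranslated region before the exon holding the start of the coding sequence. Its PSI was 24.7, 23.4 and 23.6% in normoxia siControl and 17.1, 16.8 and 17.5% in normoxia siARNT. In hypoxia the values were 23.7, 22.7 and 23.1% (siControl) and 17.8, 15.1 and 16.8% (siARNT). The siARNT libraries lay below the siControl libraries at both oxygen levels. The log2 odds ratio with siARNT was -0.61 in normoxia (SE 0.0947, edgeR adjusted p 0.0327) and, in hypoxia, -0.60 with an SE of 0.107 and an adjusted p of 0.0831, with an interaction of 0.02 (adjusted p near 1).

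A longer form of the exon, 167 bases with the same 3′ end on the minus strand, gave -0.74 in normoxia (adjusted p 0.0436) and -0.63 in hypoxia (adjusted p 0.200). Its PSI was 16.3, 14.7 and 16.2% in normoxia siControl and 10.1, 9.8 and 10.4% in normoxia siARNT. Both events share a junction on one side and the skipping reads, so they are not independent. They were 2 of 31 tested member events apart from SAT1, against 0.129% of all events called in normoxia, and 0 of 31 were called in hypoxia (0.0581% of all events; 4 member events at an unadjusted p under 0.05, and 0 by limma). The interaction called 0 of 31 (0% of all events; 2 unadjusted, 0 by limma). Whether the AZIN1 events were called depended on how the variance was modelled. With a negative binomial dispersion over all events the adjusted p in normoxia was 0.884 and 0.844 by edgeR's older method and 0.820 and 0.681 by its newer one, and limma gave 0.706 and 0.634. Leaving out any 1 of 9 libraries also ended the call for the shorter form, those of normoxia siControl, normoxia siARNT and hypoxia siControl (adjusted p 0.0548 to 0.235).

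The remaining named events of the members were called in no comparison. In AZIN1 another form of the same exon had a mean PSI of 12.6% with siControl and 9.3% with siARNT in normoxia, and 11.8% and 8.5% in hypoxia, without overlap at either oxygen level (adjusted p 0.398 and 0.649). An alternative 3′ splice site downstream held 7.3 to 8.4%. With the other acceptor of the downstream exon, means in the same order were 87.7, 85.9, 83.5 and 78% for the shorter exon and 47.3, 43.1, 29.3 and 25.5% for the longer one, the latter on 25.1 reads per library. Downstream in AZIN1, mean inclusion was 94.9 to 98.4% for one exon and 87.0 to 96.2% for a pair that shares its skipping reads, and libraries A and C of normoxia siARNT held 0 of those reads. For the pair the normoxia groups did not overlap (adjusted p 0.559). A further AZIN1 alternative 3′ splice site held 4.6 to 9.3%, and 2 more were at 0 in most libraries. A pair of rare acceptors in OAZ1 had means of 14.3 to 20.1% and 5.3 to 11.6%, an OAZ2 exon was included at 94.9 to 96.3%, a SMOX exon at 80.9 to 94.4% on 10.2 reads per library, and an SMS exon at 4.2 to 11.3%. The tested events of ODC1 and AMD1 had a minor form under 5% in every group, and the 1 event of SRM had too few reads of one form.

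Upstream sequence was searched for CACGTG, the E-box letters read the same on both strands, because ODC1 and SRM were the members called lower with hypoxia in siControl. RefSeq promoters (GRCh38.p14, 250 bases before the start) were found for 7 of the 9 members in 10 windows, and 2 of the 7 genes, SRM and ODC1, held the letters. Over 35116 promoters of that length 6.3% held them, a share per window, whereas the members are counted per gene over all its windows. ACGTG on either strand, which every CACGTG contains, was in 3 of the 7 genes, SMS being the other one. It was in 18.5% of all promoters, again per window. In ODC1 only the downstream one of its 2 windows had a match, and 142 of its 250 bases overlap an annotated UTR. The SRM stretch is shown with the match in capitals, minus strand, ending where an annotated UTR begins. A match is a description of letters and not a measured binding site, and its share among the members was not tested.
SRM, chr1:11060025-11060268: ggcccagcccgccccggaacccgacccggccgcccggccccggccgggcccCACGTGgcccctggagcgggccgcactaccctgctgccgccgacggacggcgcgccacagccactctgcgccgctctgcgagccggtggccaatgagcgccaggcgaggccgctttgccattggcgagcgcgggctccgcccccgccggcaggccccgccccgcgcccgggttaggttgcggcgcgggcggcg

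Genes around the pathway were read from a list of 39, of which 31 were tested. With hypoxia in siControl, 15 of the 31 were called, 5 up and 10 down (10.4% and 14.9% of all genes), with a median log2 fold change of -0.02 against 0.02 over all genes. All 5 calls among 8 genes of the methionine cycle and its salvage were falls, beside 14.9% falls over all genes. Arginine and ornithine supply had 3 of 5 called (1 up, 2 down) and transport 4 of 8 (2 up, 2 down). Acetylation and oxidation had 1 of 4 (up), the antizyme family 1 of 2 (up) and hypusine formation 1 of 4 (down). No part of the list was tested as a set. The largest change was in the antizyme inhibitor gene AZIN2 (1.09, adjusted p 0.00715), which was scarce at 0.530 ± 0.0717 and 1.13 ± 0.228 CPM in normoxia and hypoxia siControl (SD, n = 3). CAV1, which encodes a caveolin, rose by 0.96 (adjusted p 6.09e-07), and SLC22A3, a cation transporter, by 0.64 (adjusted p 7.32e-06). Polyamine uptake was not measured. AGMAT, annotated as an agmatinase, fell by 0.80 (adjusted p 1.58e-05), and the aspartate aminotransferase GOT1 fell by 0.69 (adjusted p 8.24e-06). PAOX, the oxidase of acetylated polyamines, rose by 0.59 (adjusted p 0.0437) from 2.02 ± 0.129 CPM, and this call was lost under 8 alternatives, among them leaving out any 1 normoxia siControl library.

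With hypoxia in siARNT, 3 of the 31 were called, 1 up and 2 down (2.21% and 1.89% of all genes; median -0.08 against -0.04), and none met the rule for naming. With siARNT in normoxia, 10 were called, 6 up and 4 down (9.42% and 10.8% of all genes; median 0.16 against 0.01). AGMAT was higher, at 51.6 ± 3.41 against 34.4 ± 0.449 CPM (0.59, adjusted p 0.000230). The glypican gene GPC1 (1.47, adjusted p 0.0333) and AZIN2 (0.83, adjusted p 0.0377) were also called, but lost their calls under 6 and 7 alternatives. GPC1 has 66.7% GC, and its value was 0.64 with GC correction and 0.87 without library B of normoxia siARNT (adjusted p 0.00367 and 0.107). Its CPM was 7.61 ± 1.93 in normoxia siControl and 21.1 ± 12.3 in normoxia siARNT (SD, n = 3).

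With siARNT in hypoxia, 12 of the 31 were called, 7 up and 5 down (14.4% and 14.7% of all genes; median 0.09 against 0.02). AGMAT stood at 39.5 ± 1.20 CPM against 19.8 ± 1.59 (1.00, adjusted p 1.63e-06) and GOT1 at 70.7 ± 1.29 against 41.3 ± 2.70 (0.77, adjusted p 1.97e-06), both higher. CAV1 was lower, at 93.1 ± 2.45 against 157 ± 3.76 CPM (-0.75, adjusted p 1.91e-06), and so was ALDH18A1, the enzyme that makes the precursor of proline and ornithine (-0.74, adjusted p 1.30e-05). SLC12A8 was higher by 0.67 (adjusted p 0.0133) at 2.24 ± 0.494 CPM, a call lost in 3 alternatives, among them leaving out hypoxia siControl A or hypoxia siARNT C. The interaction called 5 of the 31, 2 up and 3 down (2.49% and 2.19% of all genes; median -0.04 against -0.02), with CAV1 at -0.78 (adjusted p 0.000219), ALDH18A1 at -0.63 (adjusted p 0.00491) and GOT1 at 0.56 (adjusted p 0.00323).

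The libraries held 38.53 to 84.34 M gene counts. ARNT stood at 60.7 to 72.2 CPM in the siControl libraries and 12.8 to 16 in the siARNT libraries, and the HIF targets CA9, EGLN3 and NDRG1 were at 105 to 130, 114 to 128 and 1048 to 1199 CPM in hypoxia siControl against at most 31.1, 22.4 and 228 in hypoxia siARNT. Of 9 epithelial markers, KRT8, KRT18, KRT19, EPCAM, CDH1 and CEACAM6 stood above 100 CPM in every library, whereas KRT7 was at most 4.01. Summed, the 9 came to 7135 to 10032 CPM in normoxia siARNT and 5940 to 7240 in the other groups, and the part of this in the results was not tested. Of 14 measured markers of other cell types, 13 were at most 1.02 CPM throughout, CD3E, AMY2A and INS at 0 in all 12 libraries, and LUM was at 335 to 592 CPM. The 14 summed to 569 to 595 CPM in hypoxia siControl and 338 to 470 in the other groups, nearly all of it LUM.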

How the data were processed

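Counts per gene are as the authors deposited them. Per the submitters' processing notes, STAR 2.4.2a, Trimmomatic and GRCh38.p10 were used, in roles not given in the sources used here. No event exon of any member lay at a GENCODE 29 position, so the event coordinates printed here are not GRCh38 positions. The event files give counts of junction reads, intron coverage as a signal, and a PSI column (a fraction), as deposited. PSI printed here was recomputed from the deposited counts as a percent. Exon coverage columns (192) were not used. Summary lines that name no gene (22.71 to 25.20% of reads) were left out. Genes were fitted with edgeR 4.0.16 (TMM, filterByExpr, robust quasi-likelihood, 1 mean per group over 12 libraries). Events needed a mean of 10 reads per library and 10 reads of each form. The members, lists and naming rules (all members, named events with a minor form of at least 5% or a call, at most 6 pathway genes per comparison with a call, a log2 fold change of at least 0.5 and no overlap) were chosen with earlier results of these data known. The planned event test left the variance model open. 4 forms were run on the real events: a Poisson variance or a negative binomial dispersion, each with edgeR's older or newer quasi-likelihood method. The Poisson variance with the older method was taken as main after values of SAT1 and AZIN1 had been seen, because it recovered more changed events in simulated data whose design was revised on the way, and because the newer method failed with a library left out. The simulated noise was drawn for each event with its own spread, which is closer to the Poisson form. The simulation therefore cannot decide between the forms, and the AZIN1 calls rest on that choice. Scripts were tested on simulated data. The GC correction subtracted a spline of each library's log counts on transcript GC content, and its error rate was not tested. PECAM1, of the marker list, is not reported here. Standard errors were derived from each log2 value and its F statistic.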

Additional observations from a re-analysis of the deposited data

Results flagged for a closer look

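The change of ODC1 with hypoxia differed between siARNT and siControl cells by 0.88 on the log2 scale (edgeR interaction term, adjusted p 0.00133). The hypoxia libraries held 94.5, 81.5 and 108 CPM in siControl and 161, 168 and 159 in siARNT. The same term was -0.78 for CAV1, -0.63 for ALDH18A1 and 0.56 for GOT1. No group was large enough for a test of single outlying libraries.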

How the results depend on the processing

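Counts of called members moved most with GC correction, which gave 5 instead of 2 with hypoxia in siControl, 5 instead of 0 with hypoxia in siARNT, 4 instead of 1 with siARNT in normoxia, 5 instead of 3 with siARNT in hypoxia and 3 instead of 1 in the interaction, each the same with the replicate block added. The cause was not tested. Calls over all genes also rose with GC correction, to 6537 from 4299 with hypoxia in siControl and 3115 from 696 in siARNT. With siARNT they rose to 4996 from 3431 in normoxia and 7253 from 4948 in hypoxia, and to 2312 from 797 in the interaction. With no filter on low counts 1 member was called with hypoxia in siControl (3603 of all genes). DESeq2 called 1 member with hypoxia in siARNT (973 of all genes) and 3 with siARNT in normoxia (4218). Scaling by total count gave 2 members with siARNT in normoxia (3626 of all genes) and 2 in the interaction (1495). Of the pathway list, hypoxia in siARNT called 3, but 0 with only the 6 samples compared or with wells as replicate block, 9 with GC correction and 11 with GC correction and the replicate block by letter. With siARNT in normoxia it called 10, but 5 without the filter or with only the 6 samples, and in the interaction 5, but 3 without the filter or with wells as block. Calls over all genes fell too. With hypoxia in siARNT they were 22 with only the 6 samples and 136 with wells as block. With siARNT in normoxia they were 2636 without the filter and 2620 with only the 6 samples. In the interaction they were 579 without the filter and 373 with wells as block. Libraries of the same letter did not pair in every comparison. Correlations of their deviations were -0.43 to 0.52, against -0.64 to 0.63 for different letters. For A, B and C they were 0.07, 0.3 and 0.08 between the siControl groups and 0.25, 0.41 and 0.08 between the normoxia groups. Blocked by letter, 4 members were called with siARNT in normoxia, where 4732 of all genes were called instead of 3431. That block called 1 member event with siARNT in hypoxia, and the call counts of member events in the other comparisons were the same. Over all events that block gave 531 and 344 calls with hypoxia in siControl and siARNT (22 and 0 without it), 639 and 384 with siARNT in normoxia and hypoxia (62 and 28) and 36 in the interaction (0).

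Of 31 member events, siARNT in normoxia called 2, but 1 with no read minimum and 0 with either negative binomial form or limma. Over all events in that comparison, 62 were called by the test used, 95 by the Poisson variance with the newer method, 0 and 17 by the older and newer negative binomial forms, and 10 by limma. Leaving out 1 library at a time gave 1 to 3 called members with hypoxia in siControl and 0 to 4 with siARNT in normoxia. It gave 2 to 3 with siARNT in hypoxia. For the pathway list it gave 8 to 16 and 0 to 3 with hypoxia in siControl and siARNT, 2 to 11 and 8 to 12 with siARNT in normoxia and hypoxia, and 3 to 5 in the interaction. For member events it gave 0 to 1 with hypoxia in siARNT and 0 to 2 with siARNT in normoxia. The values that changed sign were not called. With hypoxia in siControl OAZ1 was -0.09 with GC correction, also with the block, and -0.05 to 0.18 with a library left out. With hypoxia in siARNT SMOX was 0.02 with GC correction, 0.03 with the block added and -0.55 to 0.31 with a library left out, and OAZ2 was -0.02 and -0.01 in those GC fits. With siARNT in normoxia SMS was 0.02 in both GC fits, and OAZ2 was -0.04 to 0.03 with a library left out. AZIN1 with siARNT in hypoxia was -0.02 to 0.12. In the interaction AMD1 was 0.03 under total count scaling and -0.09 to 0.06 with a library left out, and SRM was -0.06 to 0.43.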
